A study of Mus musculus with 6 samples.

Results

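The genes described are 39 chaperone and stress genes: 23 of the unfolded protein response of the endoplasmic reticulum (ER), 13 heat shock genes of the cytosol and nucleus, and 3 heat shock chaperones of the mitochondrion. They were taken by symbol from a table of 54418 mouse genes, and each symbol matched 1 Ensembl identifier. RNA came from mouse organoids, epithelial cultures that grow as small hollow or solid bodies in a gel, of a line that the labels name AKP. The GATA6KO group held 3 libraries of AKP organoids with the genotype label GATA6KO, and the Control group held 3 libraries of AKP organoids with the genotype label Control. Both groups share whatever alleles the name AKP stands for, which the labels do not list. No label describes how Gata6 was disrupted, what the Control organoids received, or whether the 3 libraries of a group came from separate clones or cultures. The p-values below therefore rest on a spread between libraries that may be only technical.

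Secreted and membrane proteins fold in the ER with the help of chaperones (the HSP70 Hspa5, also called BiP, and the HSP90 Hsp90b1), of disulfide isomerases, and of lectins such as Calr and Canx. When unfolded protein builds up there, the sensors Ern1 (IRE1 alpha), Atf6 and Eif2ak3 (PERK) start the unfolded protein response, in which Atf6 and the spliced product of Xbp1 raise transcription of the chaperones and of the machinery that removes misfolded protein. The cytosol has a separate system, the heat shock response, in which the factor Hsf1 raises HSP70, HSP90, small heat shock proteins and their co-chaperones. Secretory epithelia of the intestine depend on the ER system for mucin and peptide secretion.

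Total counts ran from 29208525 to 29674562 in GATA6KO libraries and from 22973245 to 31328415 in Control libraries. Gata6 measured 14.3, 16 and 8.24 CPM (counts per 1000000 counts of a library, scaled between libraries by TMM) in GATA6KO replicates 1 to 3, against 25.3, 23.2 and 28.0 CPM in Control replicates 1 to 3 (log2 fold change -0.99, SE 0.25, adjusted p = 0.0486). Leaving out Control replicate 1, 2 or 3 ended the call (adjusted p = 0.149, 0.128 and 0.181). Gata6 lies on chromosome 18, as does the member Hspa9. The GATA6KO libraries spread more: the median coefficient of variation of a tested gene was 19.5% in GATA6KO and 6.63% in Control. Chromosome 14 lay low in GATA6KO replicate 2, with a median log2 ratio to the Control mean of -0.90 over 355 genes, against -0.09 and 0.04 in GATA6KO replicates 1 and 3. Mitochondrial transcripts took 2.07% to 2.84% of the counts in GATA6KO and 1.85% to 1.88% in Control. Of 12 markers of intestinal epithelium, 11 were expressed enough to test and 4 (Krt18, Cdh17, Krt8 and Cdh1) fell. The median log2 fold change of the 11 was -0.47. The summed level of the 12 markers was 7410 to 8725 CPM in GATA6KO and 11250 to 12311 CPM in Control, and Muc2 was too low to test. Fibroblast markers had at most 10 counts in any library, with Lum at 0 in all 6. Of the leukocyte, endothelial and hepatocyte markers, 1 of 7 (Cd14), 1 of 5 (Vwf) and 1 of 6 (Alb) were tested, and none of the 3 passed. The part that the spread, the mitochondrial share or the epithelial markers play in the results below was not tested. In such bulk libraries, fewer cells of a type and less RNA per cell cannot be told apart.

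In GATA6KO organoids, transcripts of the ER chaperones Hspa5 and Hsp90b1 were lower, while those of the small heat shock proteins Hspb1 and Hspb8 were higher. Hspa5, the most abundant ER member per length in Control, fell to 0.391 of its Control mean. Hspb1 and Hspb8 rose 6.32-fold and 6.48-fold. The sensor Ern1 rose 2.0-fold, while Atf6, another sensor, fell to 0.567 and the factor gene Xbp1 to 0.549 of the Control mean. All 39 genes were expressed enough to be tested, and 13 of them passed an adjusted p of 0.05 by edgeR's quasi-likelihood test over 14714 genes. Over all genes tested, 12.4% passed, 6.92% as higher and 5.47% as lower in GATA6KO. These shares stand beside the counts of each compartment and role below, and each role holds only a few genes.

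Of 23 ER members, 7 fell (Hspa5, Hsp90b1, Pdia6, Creld2, Manf, Xbp1 and Atf6) and 1 rose (Ern1). The estimate was below 0 for 21 of the 23, and the median log2 fold change was -0.36, where all genes tested had a median of 0.02 and 48.1% below 0. The 11 tested markers of intestinal epithelium had a median of -0.47. Of 13 cytosolic members, 4 rose (Hspb1, Hspb8, Hsph1 and Dnaja1) and 0 fell, with 7 of 13 estimates below 0 and a median of -0.02. Of 3 mitochondrial members, Hspa9 fell and Hspd1 and Hspe1 were not called. The groups did not overlap for 16 of 23 ER members (14 lower, 2 higher) and for 5 of 13 cytosolic members (1 lower, 4 higher), against 40.8% of all genes tested (20.5% lower, 20.3% higher). No test compared the compartments as sets. DESeq2 called 12 ER members lower and 1 higher, and the edgeR count was 13 lower and 2 higher without GATA6KO replicate 1. Calls over the whole table also rose in these 2 fits, to 3238 and 4360, from 1823 in the main fit. Without Control replicate 1, 2 or 3, when the whole table gave 425, 389 and 332 calls, the ER members called were 1, 2 and 1 and the cytosolic members called were 1 each time.

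**Figure D1:**
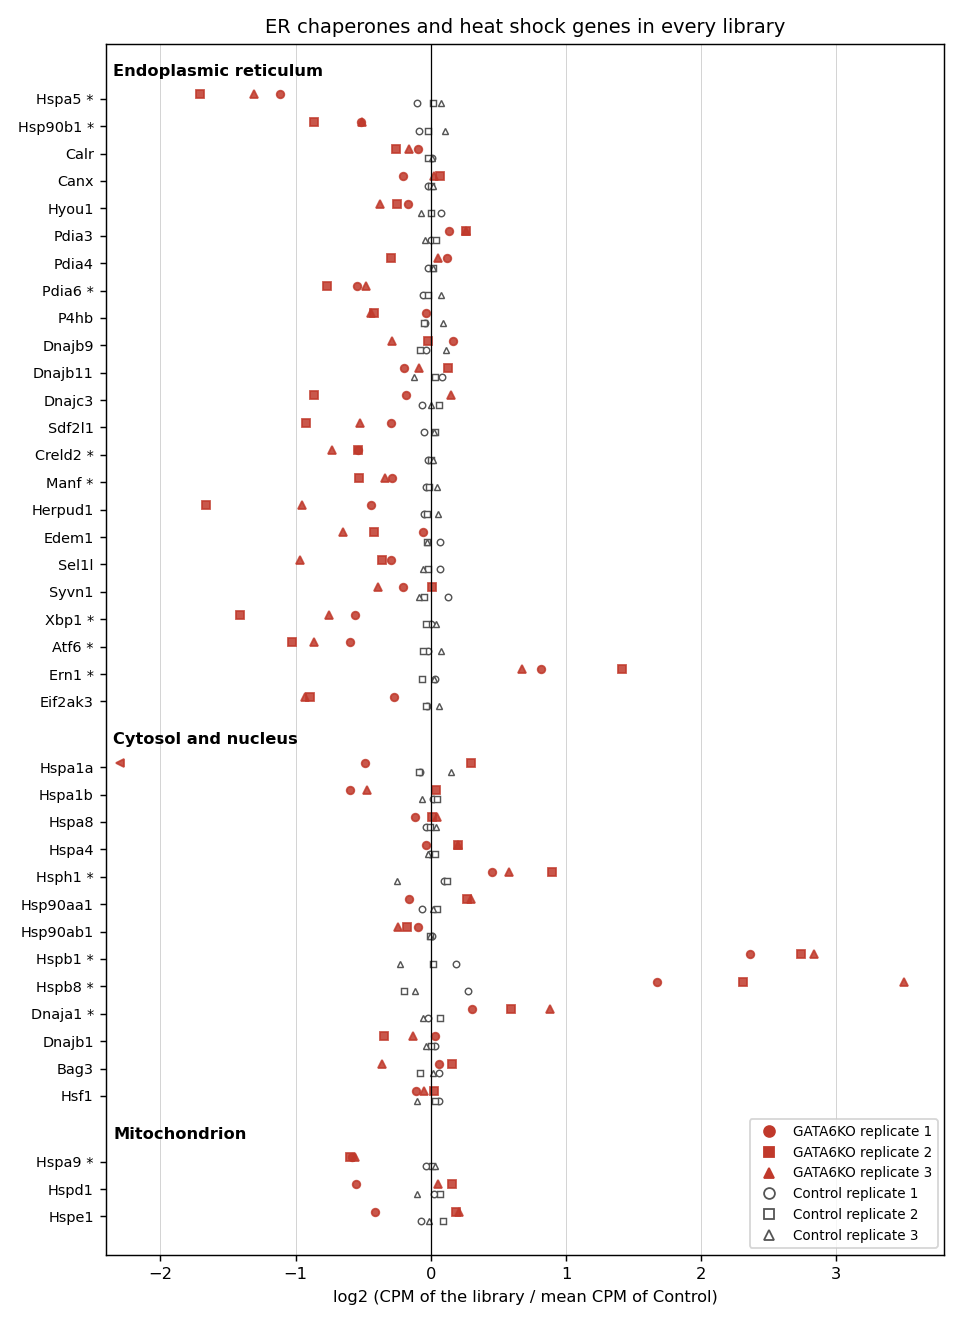
Level of each of the 39 members in every library, as the log2 of its CPM over the mean CPM of Control. Filled red symbols are GATA6KO replicates 1 to 3 and open grey symbols are Control replicates 1 to 3, with a star for genes with an adjusted p under 0.05. Hspa5 and Xbp1 lie to the left and Ern1, Hspb1 and Hspb8 to the right in all GATA6KO libraries. The arrowhead at the left edge is Hspa1a in GATA6KO replicate 3, at 0.0648 of the Control mean and outside the axis.

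Summed over the 23 ER members, the level was 6460, 5535 and 6019 CPM in GATA6KO replicates 1 to 3, against 8170, 8386 and 8728 CPM in Control replicates 1 to 3. The mean was 6005 ± 462 CPM in GATA6KO and 8428 ± 281 CPM in Control (SD, n = 3 each), a ratio of 0.713. Hspa5 made up a large part of this difference, since without it the sums averaged 5185 ± 301 CPM in GATA6KO and 6329 ± 161 CPM in Control, a ratio of 0.819. Both sums were lower in every GATA6KO library than in any Control library. The 13 cytosolic members summed to 8552 ± 361 CPM in GATA6KO and 8641 ± 88.4 CPM in Control, a ratio of 0.99, and these ranges overlapped. That sum is dominated by Hspa8, Hsp90ab1 and Hsp90aa1, none of which was called.

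Hspa5, the HSP70 of the ER lumen and the chaperone that keeps the 3 sensors inactive, lies on chromosome 2, 34771970 to 34777547 (mm10, + strand). It measured 967, 643 and 849 CPM in GATA6KO replicates 1 to 3, against 1954, 2127 and 2214 CPM in Control replicates 1 to 3. Every GATA6KO library was at less than 0.5 of the Control mean, and replicate 2 was the lowest at 0.307. The log2 fold change was -1.36 (SE 0.16, adjusted p = 0.00516), and the call held without each library in turn (adjusted p of 0.00291 to 0.0369). Per kilobase of exon, Hspa5 averaged 194 ± 38.8 CPM in GATA6KO and 496 ± 31.2 CPM in Control (SD, n = 3 each). That placed it the eighth of the 39 members in GATA6KO and the third in Control, after Hsp90ab1 and Hspa8. In GATA6KO its neighbours in that order, Hsp90b1, Calr and Hspa9 at 219, 208 and 184 CPM per kilobase, lay within its SD. In Control the gap to the next member, P4hb at 353 CPM per kilobase, was larger than the SD of either.

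Hsp90b1 (GRP94), the HSP90 of the ER, measured 948, 747 and 953 CPM in GATA6KO replicates 1 to 3, against 1276, 1335 and 1459 CPM in Control replicates 1 to 3. The groups did not overlap, and the log2 fold change was -0.62 (SE 0.13, adjusted p = 0.0272). With Control replicate 1, 2 or 3 left out, its adjusted p was 0.0947, 0.107 and 0.125. The lectin chaperones were not called. Calr, a soluble lectin that holds newly made glycoproteins, averaged 598 ± 34.0 CPM in GATA6KO and 673 ± 7.23 CPM in Control (log2 fold change -0.17, adjusted p = 0.234). Canx, its membrane-bound relative, averaged 617 ± 60.8 CPM in GATA6KO and 631 ± 7.9 CPM in Control (log2 fold change -0.03, adjusted p = 0.861). Hyou1, an HSP110-type chaperone that works with Hspa5 as an exchange factor, averaged 223 ± 16 CPM in GATA6KO and 267 ± 13.8 CPM in Control (log2 fold change -0.26, adjusted p = 0.114, and 0.0457 without GATA6KO replicate 1). Of the 5 general chaperones, 2 fell and 3 were not called.

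Many ER chaperone genes are known for a promoter element, the ER stress response element (ERSE), which Atf6 and the factor NF-Y bind together. RefSeq windows from 250 bases before to 50 bases after a start (GRCm38.p6, the assembly of mm10) were found for 31 of the 39 members, 20 of them ER members. Hyou1, Manf, Atf6, Hspa8, Hsp90aa1, Hsp90ab1, Hsf1 and Hspa9 were not matched. The ERSE was searched on both strands as CCAAT, 9 bases of any kind, and CCACG. It was present in 8 of 20 ER members, in 0 of 9 cytosolic and 0 of 2 mitochondrial members, and in 0.137% of all 27025 genes with a window (37 genes). The sites are shown because 4 of the 7 ER members that fell carry one, as do 4 members that were not called. Each is printed 5′ to 3′ on the strand where the element reads forward, with both parts of the element in capitals and the spacer and 5 flanking bases in lower case:
Hspa5, chr2:34772020-34772048 (+): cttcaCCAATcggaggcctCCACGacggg
Hsp90b1, chr10:86705633-86705661 (-): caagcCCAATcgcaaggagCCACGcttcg
Hsp90b1, chr10:86705528-86705556 (+): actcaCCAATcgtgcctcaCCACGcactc
Pdia6, chr12:17266486-17266514 (+): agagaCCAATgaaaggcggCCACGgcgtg
Creld2, chr15:88819515-88819543 (-): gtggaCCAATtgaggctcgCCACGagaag
Calr, chr8:84847070-84847098 (+): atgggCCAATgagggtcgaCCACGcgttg
Canx, chr11:50325795-50325823 (-): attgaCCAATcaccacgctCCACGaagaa
Dnajc3, chr14:118937822-118937850 (+): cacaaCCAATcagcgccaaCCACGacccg
Syvn1, chr19:6046527-6046555 (+): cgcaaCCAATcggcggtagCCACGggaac

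The elements began 44 (Syvn1) to 212 (Hsp90b1) bases before the RefSeq start, and only that of Hspa5 overlapped an exon of its gene in GENCODE M21. Hsp90b1 carried 2 of them, in opposite orientations. The first 4 genes printed fell in GATA6KO, while Calr, Canx, Dnajc3 and Syvn1 carry the same letters and were not called. The median log2 fold change was -0.41 over these 8 genes, -0.32 over the 12 ER members whose window held no ERSE (1 fell, 1 rose) and -0.38 over the 3 with no window (2 fell). Of 29 other genes with an ERSE in their window, 8 were tested, of which 3 fell and 0 rose. These 3, Pan2, Alg12 and Zfp57, are named after their values were seen. Over all genes tested, 5.47% were called lower and 6.92% higher. The CCAAT box alone was in 18 of 20 ER, 5 of 9 cytosolic and 1 of 2 mitochondrial members, and in 41.1% of all genes with a window. TGACGTG, the core of another element of the response, was in Hspa5 among the members and in 2.22% of all genes. A shorter variant, ERSE-II, was searched as ATTGG, 1 base of any kind, and CCACG. It was present in Herpud1 and Dnajb11 among the members and in 0.0444% of genes. In Herpud1 it lay at chr8:94386372-94386392 (+) and is printed with the element in capitals except for its free base.
Herpud1: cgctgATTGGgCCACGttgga

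Among the disulfide isomerases, which form and shuffle disulfide bonds in the ER, Pdia6 fell and 3 were not called. Pdia6 measured 233, 200 and 244 CPM in GATA6KO replicates 1 to 3, against 327, 335 and 358 CPM in Control replicates 1 to 3 (log2 fold change -0.59, SE 0.10, adjusted p = 0.0169). All GATA6KO libraries lay below all Control libraries, but the call was lost with Control replicate 1, 2 or 3 left out (adjusted p = 0.0778, 0.0815 and 0.0947). Pdia3, which works with Calr and Canx on glycoproteins, was the only other ER member with an estimate above 0 besides Ern1. It averaged 523 ± 25.5 CPM in GATA6KO and 450 ± 13.5 CPM in Control (log2 fold change 0.22, adjusted p = 0.141, and 0.0488 without GATA6KO replicate 1). P4hb, the archetypal isomerase and a subunit of prolyl hydroxylase, averaged 828 ± 137 CPM in GATA6KO and 1010 ± 58.2 CPM in Control (adjusted p = 0.202, and 0.0199 without GATA6KO replicate 1). Pdia4 averaged 212 ± 31.5 CPM in GATA6KO and 216 ± 2.65 CPM in Control (adjusted p = 0.894).

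Among 6 smaller factors and co-chaperones of the ER, Creld2 and Manf fell. Creld2, a secreted protein known as an ER stress target, measured 40.7, 40.7 and 35.7 CPM in GATA6KO replicates 1 to 3, against 58.3, 59.3 and 59.9 CPM in Control replicates 1 to 3 (log2 fold change -0.60, SE 0.09, adjusted p = 0.0109). Manf, an ER-resident protein that binds Hspa5, measured 144, 122 and 139 CPM in GATA6KO replicates 1 to 3, against 172, 174 and 182 CPM in Control replicates 1 to 3 (log2 fold change -0.38, SE 0.09, adjusted p = 0.0439). The groups did not overlap for either gene. Creld2 was not called with Control replicate 1, 2 or 3 left out (adjusted p = 0.0649, 0.0718 and 0.0726). Manf was not called without those libraries (adjusted p = 0.151, 0.149 and 0.172) or without GATA6KO replicate 3 (0.0573). Nor was it called under scaling to the library total alone, with no filter on low counts or with the replicate number as a block.

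Sdf2l1, a partner of the ER-resident J proteins, measured 49.3, 32.0 and 42.2 CPM in GATA6KO replicates 1 to 3, against 58.5, 61.9 and 61.5 CPM in Control replicates 1 to 3 (log2 fold change -0.56, SE 0.16, adjusted p = 0.0651). It did not pass, although the groups did not overlap, and its adjusted p was 0.0164 without GATA6KO replicate 1 and 0.0475 without GATA6KO replicate 2. The 3 J proteins, which deliver clients to Hspa5 and start its ATP cycle, were not called either. Dnajb9 averaged 24.6 ± 3.76 CPM in GATA6KO and 25.2 ± 1.81 CPM in Control, and Dnajb11 averaged 90.7 ± 10.7 CPM in GATA6KO and 93.5 ± 6.87 CPM in Control (log2 fold change -0.04 for each). Dnajc3, which also restrains the kinase PERK, lies on chromosome 14 and measured 105, 65.3 and 132 CPM in GATA6KO replicates 1 to 3, against 114, 124 and 119 CPM in Control replicates 1 to 3. Its low value stood in the library where that chromosome as a whole was low, and its log2 fold change was -0.23 with GATA6KO replicate 2 and 0.00 without it.

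Genes of ER-associated degradation, which pulls misfolded proteins out of the ER for the proteasome, all had estimates below 0, and none of the 4 was called. Herpud1, a scaffold of the Syvn1 ligase complex, measured 82.5, 35.3 and 57.8 CPM in GATA6KO replicates 1 to 3, against 108, 110 and 116 CPM in Control replicates 1 to 3 (log2 fold change -0.93, SE 0.28, adjusted p = 0.0747). The GATA6KO libraries differed more than 2-fold among themselves, yet each was below all Control libraries. Without GATA6KO replicate 1 or 2 the adjusted p was 0.0145 and 0.0426. Sel1l, the adaptor of that ligase, measured 132, 126 and 82.9 CPM in GATA6KO replicates 1 to 3, against 170, 160 and 156 CPM in Control replicates 1 to 3 (log2 fold change -0.51, SE 0.18, adjusted p = 0.108). Edem1, which recognises trimmed sugars on failed glycoproteins, measured 98.8, 77.1 and 65.6 CPM in GATA6KO replicates 1 to 3, against 108, 101 and 101 CPM in Control replicates 1 to 3 (log2 fold change -0.36, SE 0.15, adjusted p = 0.16, and 0.0146 without GATA6KO replicate 1). The ligase Syvn1 (HRD1) itself averaged 38.6 ± 5.35 CPM in GATA6KO and 43.9 ± 3.61 CPM in Control (adjusted p = 0.366).

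Genes of the sensors and their factor moved in opposite directions. Ern1, the kinase and endonuclease that splices Xbp1 mRNA, measured 130, 197 and 118 CPM in GATA6KO replicates 1 to 3, against 75.7, 70.9 and 75.4 CPM in Control replicates 1 to 3 (chromosome 11, 106394650 to 106487852; log2 fold change 1.0, SE 0.19, adjusted p = 0.023). Each GATA6KO library exceeded every Control library. GATA6KO replicate 2 had the lowest Hspa5 and the highest Ern1, but GATA6KO replicate 1 exceeded replicate 3 in both (Hspa5 at 967 and 849 CPM). Xbp1, the factor made from the spliced mRNA, measured 107, 59.5 and 93.7 CPM in GATA6KO replicates 1 to 3, against 158, 154 and 162 CPM in Control replicates 1 to 3 (chromosome 11, 5520659 to 5525893; log2 fold change -0.86, SE 0.21, adjusted p = 0.0413). Counts per gene do not separate spliced from unspliced Xbp1, so neither the activity of Ern1 nor of Xbp1 is measured here.

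Atf6, the membrane-bound factor that is cut free in the Golgi, measured 86.6, 64.4 and 71.8 CPM in GATA6KO replicates 1 to 3, against 129, 126 and 138 CPM in Control replicates 1 to 3 (log2 fold change -0.82, SE 0.12, adjusted p = 0.0109). Eif2ak3, the kinase PERK, measured 56.0, 36.4 and 35.5 CPM in GATA6KO replicates 1 to 3, against 66.6, 66.1 and 70.6 CPM in Control replicates 1 to 3 (log2 fold change -0.67, SE 0.19, adjusted p = 0.0619). The groups did not overlap for either gene, and Eif2ak3 passed without GATA6KO replicate 1 (adjusted p = 0.00262). Calls of the sensor genes depended on the Control libraries, as did most calls over the whole table. Those numbered 1823 with all 6 libraries and 425, 389 and 332 without Control replicate 1, 2 or 3. With Control replicate 1, 2 or 3 left out, the adjusted p was 0.0958, 0.113 and 0.115 for Ern1, 0.135, 0.12 and 0.146 for Xbp1, and 0.0562, 0.0475 and 0.0624 for Atf6. Xbp1 also lost its call when GATA6KO replicate 3 was left out (0.072).

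**Figure D2:**
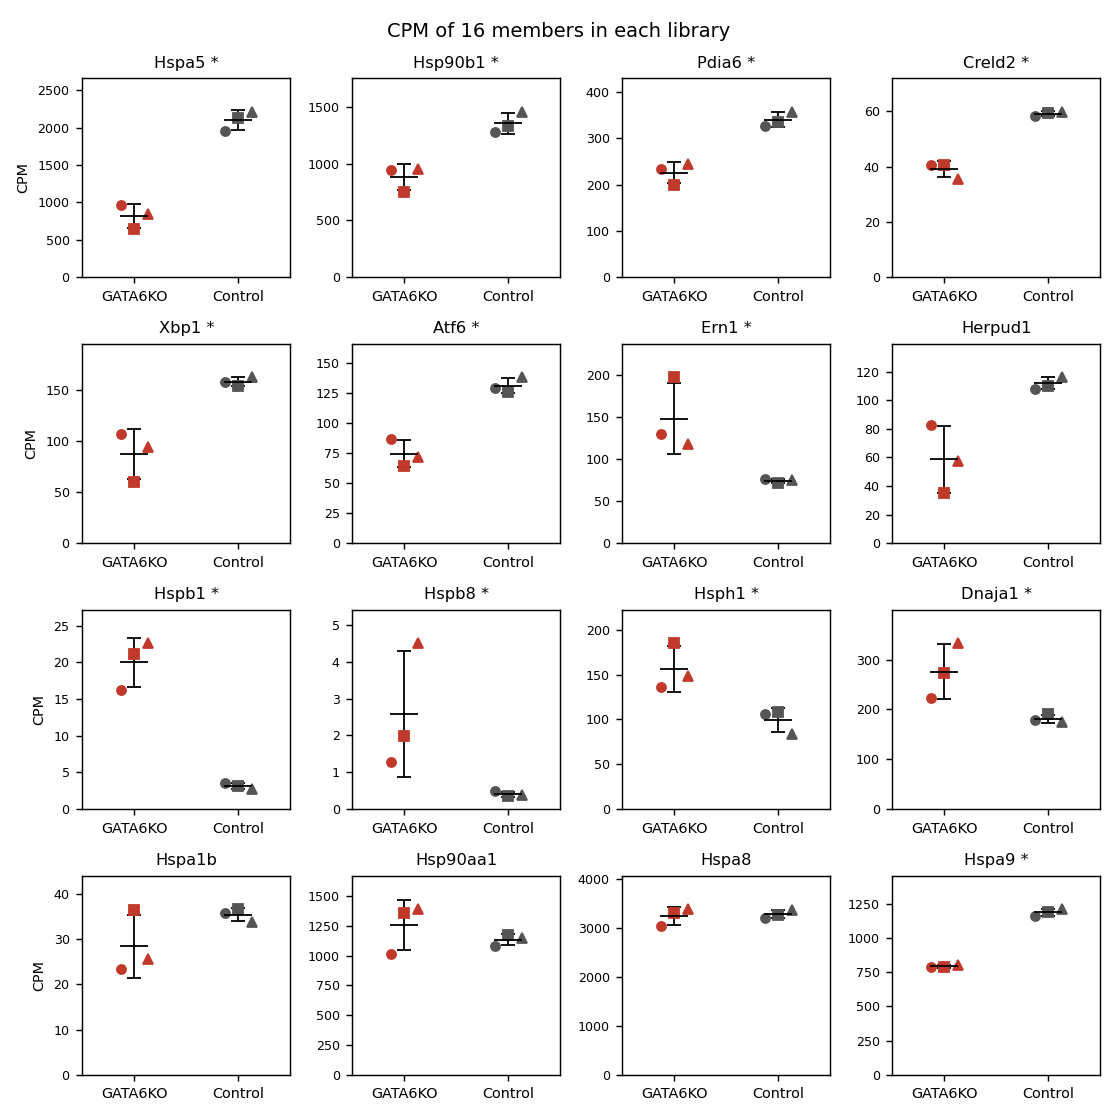
CPM of 16 members in each library, with GATA6KO to the left of Control in each panel and circles, squares and triangles for replicates 1, 2 and 3. Horizontal bars and whiskers are the mean and SD of 3 libraries, each axis starts at 0, and a star marks an adjusted p under 0.05. Hspa5, Xbp1 and Atf6 lie lower in GATA6KO, Ern1, Hspb1 and Hspb8 lie higher, and Hspa8, Hspa1b and Hsp90aa1 overlap between the groups.

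Hspb1 and Hspb8, small heat shock proteins, which hold unfolding proteins without using ATP, rose and were among the least abundant members in Control. Hspb6 and Cryab, small heat shock proteins outside the members that are named here after their values were seen, were tested and not called. Hspb6 averaged 7.45 ± 1.51 CPM in GATA6KO and 8.37 ± 0.476 CPM in Control (log2 fold change -0.17, adjusted p = 0.598), and Cryab averaged 5.02 ± 1.61 CPM in GATA6KO and 4.46 ± 1.6 CPM in Control (log2 fold change 0.17, adjusted p = 0.772). Hspb1 (HSP25 in the mouse; chromosome 5, 135887919 to 135889563) measured 16.2, 21.1 and 22.6 CPM in GATA6KO replicates 1 to 3, against 3.59, 3.19 and 2.7 CPM in Control replicates 1 to 3. This rested on 485, 645 and 678 counts in GATA6KO and 82, 92 and 81 counts in Control. The log2 fold change was 2.66 (SE 0.20, adjusted p = 0.00153), and the call held without each library in turn (adjusted p of 0.00167 to 0.0175). Hspb8, the partner of Bag3 in a chaperone complex that feeds autophagy, had 38, 60 and 135 counts in GATA6KO replicates 1 to 3, against 11, 10 and 11 counts in Control replicates 1 to 3. It measured 1.27, 1.97 and 4.5 CPM in GATA6KO and 0.482, 0.347 and 0.367 CPM in Control (log2 fold change 2.69, SE 0.54, adjusted p = 0.0258). All 3 GATA6KO libraries were above Control, and they differed more than 3-fold among themselves. With Control replicate 1, 2 or 3 left out, the adjusted p of Hspb8 was 0.0986, 0.118 and 0.132, and without GATA6KO replicate 3 its log2 fold change was 2.02. Per kilobase of exon Hspb1 stood the 26th of 39 members in GATA6KO and the 37th in Control, and Hspb8 stayed among the lowest, the 38th in GATA6KO and the 39th in Control.

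The HSP70 family of the cytosol had 1 called member of 5. Hsph1 (HSP105), a nucleotide exchange factor of the HSP70s, measured 136, 185 and 148 CPM in GATA6KO replicates 1 to 3, against 106, 108 and 83.4 CPM in Control replicates 1 to 3 (log2 fold change 0.66, SE 0.16, adjusted p = 0.0403). Hspa8 (HSC70), the constitutive HSP70, averaged 3234 ± 183 CPM in GATA6KO and 3276 ± 85.6 CPM in Control (log2 fold change -0.02, adjusted p = 0.915). Hspa4, an exchange factor related to Hsph1, averaged 496 ± 45.8 CPM in GATA6KO and 455 ± 7.65 CPM in Control (log2 fold change 0.12, adjusted p = 0.428). Leaving out Control replicate 1, 2 or 3 ended the call of Hsph1 (adjusted p = 0.118, 0.122 and 0.17), as did leaving out GATA6KO replicate 2 or 3 (0.0522 and 0.0635). Neither limma-voom with a spread per group nor the fit with the replicate number as a block called Hsph1.

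Hspa1a and Hspa1b, the stress-inducible HSP70 genes and the usual readout of the heat shock response, were not called. They lie next to each other on chromosome 17 (34969190 to 34972156 and 34956436 to 34959238) and are near-identical copies, so the division of reads between them is uncertain. Hspa1b measured 23.4, 36.3 and 25.5 CPM in GATA6KO replicates 1 to 3, against 35.8, 36.6 and 33.8 CPM in Control replicates 1 to 3 (log2 fold change -0.32, SE 0.18, adjusted p = 0.262, and 0.0216 without GATA6KO replicate 2). Hspa1a had 77, 135 and 7 counts in GATA6KO replicates 1 to 3, against 78, 98 and 120 counts in Control replicates 1 to 3, which is 2.57, 4.43 and 0.233 CPM in GATA6KO and 3.42, 3.4 and 4.0 CPM in Control (log2 fold change -0.58, SE 0.81, adjusted p = 0.661). Their summed level was 26.0, 40.7 and 25.8 CPM in GATA6KO replicates 1 to 3, against 39.3, 40 and 37.8 CPM in Control replicates 1 to 3. GATA6KO replicate 2 lay above the Control libraries in this sum and the other two lay below them.

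The HSP90 genes of the cytosol, Hsp90aa1 and Hsp90ab1, were not called. Hsp90aa1, the inducible isoform, measured 1013, 1360 and 1389 CPM in GATA6KO replicates 1 to 3, against 1082, 1169 and 1144 CPM in Control replicates 1 to 3 (log2 fold change 0.15, SE 0.14, adjusted p = 0.503). Hsp90ab1, the constitutive isoform and the most abundant member per kilobase in both groups, averaged 2946 ± 154 CPM in GATA6KO and 3314 ± 14.1 CPM in Control (log2 fold change -0.17, adjusted p = 0.263). Of the co-chaperones, Dnaja1, a J protein that delivers clients to cytosolic HSP70, rose. It measured 223, 273 and 333 CPM in GATA6KO replicates 1 to 3, against 178, 190 and 174 CPM in Control replicates 1 to 3 (log2 fold change 0.61, SE 0.15, adjusted p = 0.0455). The adjusted p of Dnaja1 was 0.161, 0.152 and 0.199 with Control replicate 1, 2 or 3 left out, and 0.0636 and 0.0571 with GATA6KO replicate 2 or 3 left out.

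Dnajb1 (HSP40), an inducible J protein, averaged 51.5 ± 6.62 CPM in GATA6KO and 56.8 ± 1.18 CPM in Control (adjusted p = 0.429). Bag3, an exchange factor of HSP70 and partner of Hspb8, averaged 45.2 ± 8.19 CPM in GATA6KO and 46.2 ± 2.32 CPM in Control (adjusted p = 0.901). Hsf1, the factor that drives the heat shock response, measured 36.2, 39.7 and 37.7 CPM in GATA6KO replicates 1 to 3, against 40.7, 40 and 36.5 CPM in Control replicates 1 to 3 (log2 fold change -0.04, SE 0.09, adjusted p = 0.779). Its groups overlapped. Hspa1a, Hspa1b, Dnajb1, Bag3 and Hsp90aa1 are classical targets of Hsf1, and none of these 5 passed the test. Hspb1, Hsph1 and Dnaja1, which are also described as its targets, rose.

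In the mitochondrion, Hspa9 (mortalin), the HSP70 of the matrix that also draws in imported proteins, fell. It measured 792, 786 and 804 CPM in GATA6KO replicates 1 to 3, against 1159, 1194 and 1212 CPM in Control replicates 1 to 3 (log2 fold change -0.58, SE 0.08, adjusted p = 0.00907). The 3 GATA6KO libraries lay close together, with a coefficient of variation of 1.18%. Hspa9 was not called with Control replicate 1, 2 or 3 left out (adjusted p = 0.0612, 0.0714 and 0.0684).

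Hspd1 (HSP60) and Hspe1 (HSP10), the barrel and lid of the mitochondrial chaperonin, were not called. Hspd1 measured 615, 1007 and 937 CPM in GATA6KO replicates 1 to 3, against 920, 946 and 843 CPM in Control replicates 1 to 3. Hspe1 measured 102, 155 and 157 CPM in GATA6KO replicates 1 to 3, against 129, 145 and 135 CPM in Control replicates 1 to 3. GATA6KO replicate 1 was the lowest library for both, and the other GATA6KO libraries were above all Control libraries for Hspe1. For Hspd1, GATA6KO replicate 2 was above them and replicate 3 lay among them. The log2 fold changes were -0.08 and 0.02 (adjusted p = 0.797 and 0.94). The 2 genes lie head to head on chromosome 1, and their shared promoter is the stretch in which the heat shock element, the binding sequence of Hsf1, was found. The element was searched on both strands as the 3 units GAA, TTC and GAA, each followed by 2 bases of any kind before the next. It was in the windows of Hspd1, Hspe1 and Hsph1 (in Hsph1 after the start), in 0 of 20 ER members, and in 0.662% of all genes. Overlapping copies in opposite orientation lay at chr1:55088056-55088084 (GRCm38.p6, + strand), upstream of Hspe1 and within an exon that GENCODE M21 gives to Hspd1. The GAA and TTC units are in capitals.
Hspd1 and Hspe1: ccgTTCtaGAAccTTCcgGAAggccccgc

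**Figure D3:**
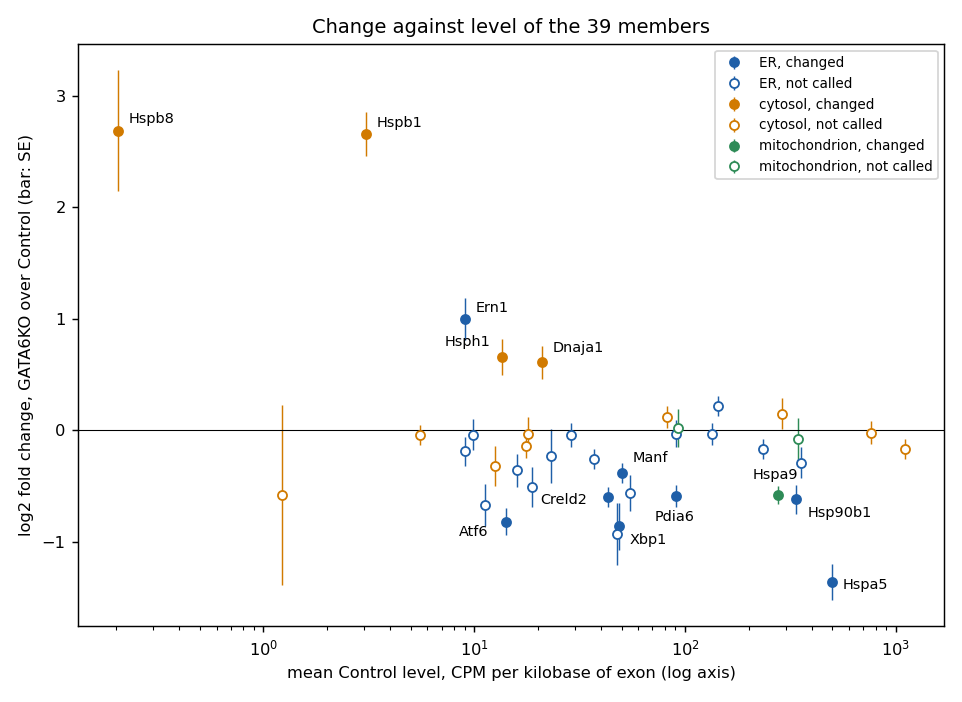
Log2 fold change of GATA6KO over Control with its SE, against the mean Control level in CPM per kilobase of exon on a log axis, for the 39 members. Filled symbols have an adjusted p under 0.05 and are named. Hspa5, at 496 CPM per kilobase, lies at -1.36, and Hspb8 and Hspb1, at 0.204 and 3.07 CPM per kilobase, lie at 2.69 and 2.66.

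The members that moved did not move equally in the 3 GATA6KO libraries. Of the 7 ER members that fell, 6 were lowest in GATA6KO replicate 2 (85.7%), where 43.7% of the 805 genes that fell in the whole table were lowest. The exception was Creld2, lowest in replicate 3. Over all 21 ER members with an estimate below 0, called or not, 11 were lowest in replicate 2 (52.4%) and 8 in replicate 3. All 4 cytosolic members that rose were lowest in GATA6KO replicate 1, where 33.8% of the 1018 genes that rose were lowest. The median log2 ratio of the 23 ER members to the Control mean was -0.20, -0.42 and -0.44 in GATA6KO replicates 1 to 3. Over the 13 cytosolic members it was -0.04, 0.20 and 0.05. The median coefficient of variation of the ER members was 15.2% in GATA6KO and 3.89% in Control.

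**Figure D4:**
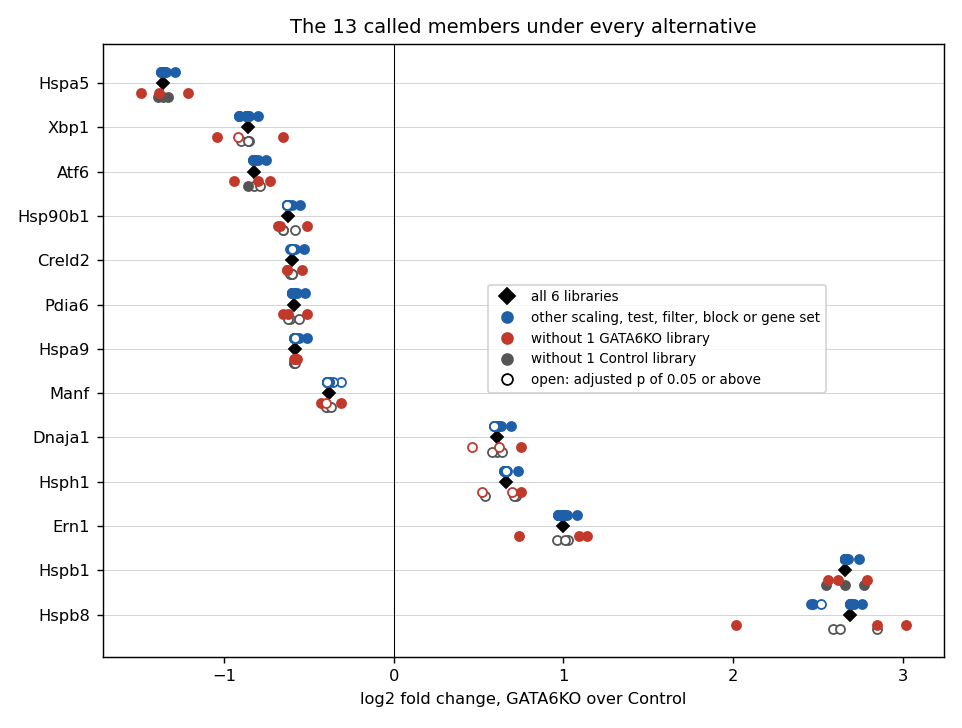
Log2 fold change of the 13 called members with all 6 libraries (black diamonds), under other scalings, tests, filters, the replicate block or without chromosome 14 (blue), and without 1 GATA6KO library (red) or 1 Control library (grey). Open symbols have an adjusted p of 0.05 or above. Every value keeps its side of 0, and Hspa5 and Hspb1 stay filled without each library.

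Other genes of the same pathways, from lists that do not include the members, were tested in the same fit. Over all genes tested in that fit, 12.4% were called, 6.92% as higher and 5.47% as lower. These shares stand beside the counts of each list here and below. Of 28 tested genes of ER folding and translocation, 1 rose and 0 fell, with a median log2 fold change of -0.01. It was Sec61b, a subunit of the translocation channel, at 113, 111 and 110 CPM in GATA6KO replicates 1 to 3, against 88.1, 90.1 and 90.9 CPM in Control replicates 1 to 3 (log2 fold change 0.31, adjusted p = 0.0398). Summed over the list, the level was 4325, 3422 and 3516 CPM in GATA6KO replicates 1 to 3, against 5368, 5378 and 5738 CPM in Control replicates 1 to 3. Ero1l, the oxidase that recharges the disulfide isomerases, made up a large part of that sum in Control and a smaller part in GATA6KO. Its difference between the groups was about as large as that of the whole sum. The sum therefore does not show the rest of the list to be lower in GATA6KO. Ero1l was not called and is named after its values were seen. Ero1l measured 825, 52.0 and 208 CPM in GATA6KO replicates 1 to 3, against 2027, 2030 and 2411 CPM in Control replicates 1 to 3 (log2 fold change -2.58, SE 0.88, adjusted p = 0.102). All GATA6KO libraries lay below Control and differed widely among themselves, and the lowest was replicate 2, in which chromosome 14, where Ero1l lies, was low as a whole. In GATA6KO replicates 1 and 3, where the chromosome was not low, Ero1l was also below Control. Of 21 genes of ER-associated degradation, 1 fell and 0 rose, with a median of 0.02. This was Ngly1, the cytosolic glycanase, at 30.6, 17.1 and 33.2 CPM in GATA6KO replicates 1 to 3, against 50.7, 55.0 and 54.3 CPM in Control replicates 1 to 3 (log2 fold change -0.98, adjusted p = 0.0437). Ngly1 lies on chromosome 14, and its lowest value was in GATA6KO replicate 2.

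Of 16 other sensors and factors of the response, 2 rose and 1 fell, with a median of 0.10. Ern2 (IRE1 beta), the paralog of Ern1 found in mucosal epithelium, measured 16.5, 9.21 and 14.6 CPM in GATA6KO replicates 1 to 3, against 5.83, 4.54 and 3.43 CPM in Control replicates 1 to 3 (log2 fold change 1.55, SE 0.29, adjusted p = 0.0215). Both IRE1 genes were thus higher in every GATA6KO library. Nfya, a subunit of the NF-Y complex that binds the CCAAT part of the ERSE, measured 70.9, 69.8 and 67.0 CPM in GATA6KO replicates 1 to 3, against 53.8, 53.3 and 50.2 CPM in Control replicates 1 to 3 (log2 fold change 0.40, adjusted p = 0.0259). Creb3l3, an ER-bound factor of liver and small intestine that is processed like Atf6, had 3, 0 and 1 counts in GATA6KO replicates 1 to 3, against 61, 73 and 78 counts in Control replicates 1 to 3 (log2 fold change -5.74, SE 0.65, adjusted p = 0.00444). Its fold change rests on 4 counts in GATA6KO and depends on the prior count of the fit.

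In the cytosol, 1 of 30 other chaperones and co-chaperones rose and 2 fell, with a median of 0.09. Hspa2, an HSP70 best known from the testis, averaged 11.7 ± 3.39 CPM in GATA6KO and 5.85 ± 0.7 CPM in Control (log2 fold change 1.0, adjusted p = 0.0461). Hspa4l, a relative of Hspa4, averaged 101 ± 13.9 CPM in GATA6KO and 162 ± 5.68 CPM in Control (log2 fold change -0.68, adjusted p = 0.0151). The co-chaperone Bag2 averaged 34.2 ± 4.09 CPM in GATA6KO and 49.1 ± 2.55 CPM in Control (log2 fold change -0.52, adjusted p = 0.0347). None of 14 genes of the chaperonin TRiC and prefoldin and none of 14 other mitochondrial chaperones and proteases was called, with medians of -0.02 and -0.16.

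Of the 8 called genes of these lists, Creb3l3 was called without each library in turn (adjusted p of at most 0.0342). The other 7 were not called without Control replicate 1, 2 or 3. Their adjusted p without those libraries was 0.165, 0.196 and 0.184 for Sec61b, 0.131, 0.139 and 0.153 for Ngly1, 0.06, 0.0994 and 0.103 for Ern2, and 0.105, 0.135 and 0.154 for Nfya. It was 0.163, 0.168 and 0.146 for Hspa2, 0.0659, 0.0739 and 0.0797 for Hspa4l, and 0.121, 0.15 and 0.132 for Bag2. For Hspa2 it was 0.0642 when GATA6KO replicate 2 was left out.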

How the data were processed

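Per the labels' protocols, libraries were prepared from poly(A) RNA with a kit that keeps strand, NEBNext Ultra II Directional. The authors deposited expected counts, that is estimated counts per gene, made by them as whole numbers and not scaled between libraries. The submitters' processing notes list Salmon 1.3.0 and mm10 and give neither a role. No source used here states the annotation, how transcripts were summed to genes, or whether strand was used. Estimated counts divide reads among similar transcripts.

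Of 54418 identifiers, 54166 matched GENCODE M21. Groups came from the sample titles. Genes were kept by edgeR's filterByExpr (14714), scaled by TMM and tested by glmQLFit with robust estimation and glmQLFTest (R 4.3.3, edgeR 4.0.16, limma 3.58.1, DESeq2 1.42.0). Each adjusted p is from this test, adjusted by Benjamini-Hochberg across the genes tested in that fit (14714 with all 6 libraries, 15128 to 15244 without 1 library), with a threshold of 0.05. The SE is the log2 fold change divided by the square root of F. A 2-sided exact permutation test of 3 against 3 cannot go below 0.1. Levels per kilobase used the union of GENCODE exons. The pipeline was tested on simulated data with the same spread in both groups. That simulation does not cover the unequal spread of the real groups.

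The members and the lists of other genes were chosen with earlier results of these data known. Described in full were called members, 8 members whatever their result and the 6 uncalled ones with the largest change, and, of other lists, up to 4 called genes each. Motifs were chosen after the values had been seen.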

Additional observations from a re-analysis of the deposited data

How the results depend on the processing

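Counts of calls over the table and the members, the medians of the ER and heat shock members, and the fold changes of the members, Gata6 and the 8 called genes of other lists were recomputed under 10 other scalings, tests, filters and gene sets (9 for Dnajc3 and Ngly1, which lie on chromosome 14) and without each of the 6 libraries. Sums, levels per kilobase, the order of libraries, the motif counts, the counts of other lists and the genes Ero1l, Hspb6 and Cryab were not. Genes called over the whole table numbered 1823, with 3238 by DESeq2 and 332 to 4360 without 1 library. ER members called were 8, with 13 by DESeq2 and 1 to 15 without 1 library. Cytosolic and mitochondrial members called were 5, and 1 to 5 without 1 library. The replicate numbers gave no sign of pairing: deviations of same-numbered libraries correlated at -0.01, 0.074 and -0.092. With the replicate number as a block, the calls were 827 over the table, 5 among ER members and 1 among the others. The members called with the block were Atf6, Ern1, Hspa5, Hspb1, Pdia6 and Xbp1. Gata6 was called neither with the block nor under scaling to the library total alone. No called member changed sign under any alternative. Of the 13, 11 were not called without 1 or more Control libraries, and Hspa5 and Hspb1 were called in all. The median log2 fold change of the ER members ran from -0.43 to -0.29. That of the 16 heat shock members ran from -0.06 to 0.07, so its sign is not fixed. Hspa1a in GATA6KO replicate 3 (7 counts) and Hspb8 in Control (10 or 11 counts) rest on few counts. For Hspa1a, the division of reads with Hspa1b is also uncertain.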
